A study of Mus musculus with 10 samples.

Results

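Mouse embryonic stem cells without Dicer were compared with their wild-type line by small RNA sequencing, using 4 of the 10 libraries of the series: 2 of the Dicer knockout (Dicer_KO) and 2 of the wild type (WT). All 1907 mature microRNA (miRNA) entries of the count table were compared, first as shares of all counts in a library and then with 8 entries left out of the totals. These 8 are miR-3963, miR-6240, miR-6539, miR-5099, miR-5126, miR-6236, miR-6239 and miR-1983. All groups are E14 cells of the 129/Ola background, a line derived from the blastocyst. The cells of every group grew on 0.2% gelatine in medium with 15% serum and 100 U/mL of LIF, the cytokine that keeps mouse stem cells undifferentiated. The WT libraries carry the codes P25 and P33, and the Dicer_KO libraries the codes C1 and H11, which the labels do not explain. The other 6 libraries are 2 each of Dgcr8_KO, Drosha_KO and Ago12_KO (Ago1 and Ago2 both deleted), and they entered only the shared estimate of the spread and a few side-by-side values. The labels do not say whether the 2 libraries of a group are separate cultures, and p-values cover only the spread between these libraries, which may be technical. The Dicer mRNA was not measured, so the genotype labels could not be checked on it.

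A miRNA is cut from its primary transcript in steps. Drosha, with its partner DGCR8, releases a hairpin in the nucleus and so sets the 5′ end of the 5p arm and the 3′ end of the 3p arm. Dicer then cuts off the loop, which sets the other end of each arm, and an Argonaute protein keeps mostly 1 of the arms, the major arm. In mouse embryonic stem cells the miR-290 to miR-295 cluster is the best known source of miRNAs, and loss of Dicer is known to deplete mature miRNAs.

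The sequences the results turn on are given first, as RefSeq lists them for assembly GRCm38.p6, from 5′ to 3′, with the seed (bases 2 to 8) in capitals. The first set holds members of the 8 entries that led the Dicer_KO libraries, and miR-1983, which did not follow them.
miR-3963: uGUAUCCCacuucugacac
miR-6240: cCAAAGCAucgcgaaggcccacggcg
miR-5126: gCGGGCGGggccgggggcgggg
miR-6236: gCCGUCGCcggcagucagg
miR-1983: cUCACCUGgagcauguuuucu
The second set holds entries outside the 8 that were among the 10 with the most Dicer_KO counts.
miR-182-5p: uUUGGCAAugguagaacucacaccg
miR-183-5p: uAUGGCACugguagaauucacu
miR-21a-5p: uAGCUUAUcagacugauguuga
miR-5121: aGCUUGUGaugagacaucucc
miR-205-5p: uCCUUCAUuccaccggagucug
The third set holds both arms of hairpins whose arm balance differed between the groups, and miR-92a-3p, the leading WT entry.
miR-295-5p: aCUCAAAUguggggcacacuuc
miR-295-3p: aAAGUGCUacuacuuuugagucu
miR-293-5p: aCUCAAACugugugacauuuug
miR-293-3p: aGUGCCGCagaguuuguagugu
miR-290a-5p: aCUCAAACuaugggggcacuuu
miR-290a-3p: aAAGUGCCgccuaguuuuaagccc
miR-16-5p: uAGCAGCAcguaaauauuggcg
miR-16-1-3p: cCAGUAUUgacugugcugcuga
miR-92a-3p: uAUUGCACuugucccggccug
The 3p arms of miR-291a, miR-294 and miR-295 share the seed AAGUGCU, and the 5p arms of miR-290a, miR-292a and miR-293 share the seed CUCAAAC. Members of a seed group therefore resemble each other in sequence, and the sources used here do not give how reads that fit several entries were assigned.

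The WT libraries held 2357868 and 1943868 counts and the Dicer_KO libraries 45222 and 37476. On average 52.0 WT counts were listed for each Dicer_KO count. Without the 8 entries the Dicer_KO libraries kept 12519 and 8524 counts, and the ratio rose to 203. The 8 entries together had 1.93 times as many counts in Dicer_KO as in WT. In these bulk libraries fewer cells of a type and less RNA per cell cannot be told apart, and neither can a smaller share of reads on miRNAs and fewer reads sequenced. Replicates scattered beyond counting error: chi-square divided by its degrees of freedom was 27.6 for the WT pair and 23.5 for the Dicer_KO pair, over entries with at least 20 counts in the group.

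Of the 829 entries with a count in both WT libraries, 434 had no count in either Dicer_KO library. In Dicer_KO, 258 entries had a count in both libraries, 80 had at least 10 in each, 20 had at least 100 and 6 had at least 1000. The limit that a count of 0 allows, 3 counts, came to 66.3 CPM (counts scaled to a total of 1000000) in Dicer_KO replicate 1 and 80.1 CPM in replicate 2, against 1.27 and 1.54 CPM in WT. Intervals and limits here cover counting error only.

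The 8 entries made up 72.3% and 77.3% of the Dicer_KO counts, 74.8% ± 3.49 (SD, n = 2), and 0.800% and 0.671% of the WT counts, 0.736% ± 0.0914 (n = 2). The groups did not overlap (exact two-sided permutation test, p = 0.33, the smallest p that 2 libraries against 2 allow for any single value). In the other knockouts the same entries held between 8.09% and 13.3% of the counts. None of the 8 carries an arm in its name.

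miR-3963 had 14612 and 9512 counts in Dicer_KO and 7572 and 3733 in WT, that is 32.3% and 25.4% of the Dicer_KO totals against 0.321% and 0.192%. It was the most counted entry of both Dicer_KO libraries, and even its raw counts did not overlap between the groups. Its share rose by a log2 fold change of 6.81 (SE 0.413, edgeR, adjusted p = 3.32e-07), and its hairpin lies at chr3:151023792-151023862, with no other gene annotated there in GENCODE M21. miR-6240 had 6645 and 7035 counts in Dicer_KO against 1765 and 1763 in WT, and miR-6539 had 3843 and 3053 against 1313 and 1131. Both rose, by 7.66 (SE 0.328) and 7.19 (SE 0.321) on the log2 scale, each with an adjusted p of 3.7e-08 (edgeR).

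miR-5126 had 3946 and 5678 counts in Dicer_KO and 2815 and 142 in WT. Its WT libraries stood far apart, so that its log2 fold change of 7.56 (SE 1.17, edgeR, adjusted p = 0.000227) became 10.67 without WT replicate 1, with an adjusted p under the threshold of 0.05 in both cases. It consists of G and C alone, and its hairpin at chr1:84695839-84695915 lies on the strand opposite to an exon of Dner. miR-5099 had 2996 and 2641 counts in Dicer_KO against 3804 and 4891 in WT, so its share rose (5.05, SE 0.301) while its raw counts were lower in both Dicer_KO libraries. miR-6236 had 655 and 1028 counts against 382 and 158, and its share rose by 7.42 (SE 0.513).

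The other members of the 8 behaved differently. miR-1983 had 4 and 5 counts in Dicer_KO and 1214 and 1223 in WT. It was the member whose share fell, by 2.38 on the log2 scale (SE 0.370, edgeR, adjusted p = 0.000228), although with DESeq2 size factors it did not pass the threshold. miR-6239 had 2 and 0 counts in Dicer_KO against 9 and 6 in WT and did not pass the test as a share. Without any scaling of the libraries 4 of the 8 were called higher (miR-3963, miR-6240, miR-6539 and miR-6236) and 2 lower (miR-1983 and miR-6239).

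**Figure D1:**
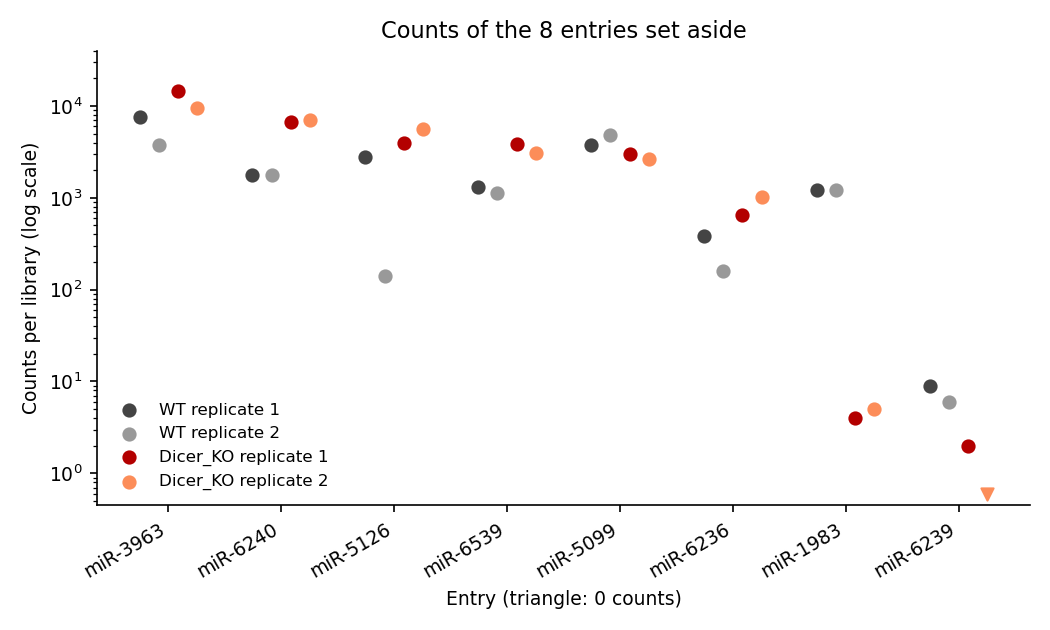
Counts of the 8 entries in each of the 4 libraries (vertical axis, counts on a log scale, 1 point a library, a triangle for 0 counts). miR-3963 had 14612 and 9512 counts in Dicer_KO against 7572 and 3733 in WT, while miR-1983 dropped to 4 and 5 counts.

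Among 481 entries with enough counts to test, 64 were called higher in Dicer_KO as a share of all counts (13.3%) and 205 lower (42.6%), by edgeR with an adjusted p under 0.05. With the 8 entries out of the totals, 473 entries were tested, and 92 were called higher (19.5%) and 80 lower (16.9%). The median log2 fold change was -2.78 over all counts and -1.16 without the 8. Of the entries tested, 136 had no Dicer_KO count. Those were then put at their bound from 3 counts over the group, or at 0 where that bound gave no decrease. The medians became -0.81 and 0. The median of 0 falls on entries with too few counts for a bound, and does not show that they were unchanged.

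The denominator decided many of the calls. Both denominators called 58 entries higher and 80 lower. Another 123 entries were lower over all counts and not called without the 8, and 33 were not called over all counts and higher without the 8. A single entry, miR-182-5p, was called in opposite directions. Without scaling, so on raw counts, 429 entries were lower and 6 higher: miR-3963, miR-6236, miR-6240, miR-6539, miR-2137 and miR-181a-2-3p. A higher share is thus not a higher raw count: most entries called higher as a share had fewer raw counts in Dicer_KO than in WT.

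Outside the 8, miR-182-5p led the Dicer_KO libraries with 3539 and 2137 counts, where WT had 296189 and 233817. As a share of counts without the 8 it made up 28.3% and 25.1% in Dicer_KO and 12.7% and 12.1% in WT, with no overlap. Over all counts its share fell (log2 fold change -0.86, SE 0.235, edgeR, adjusted p = 0.00881), a call that was lost without Dicer_KO replicate 2, and without the 8 it rose by 1.11 (SE 0.205). miR-183-5p had 1573 and 897 counts against 51204 and 38259. It did not pass the test over all counts (0.50, SE 0.265, edgeR, adjusted p = 0.129), and without the 8 it rose by 2.47 (SE 0.233). Both come from 1 primary transcript on chromosome 6, miR-182 at chr6:30165918-30165992 and miR-183 at chr6:30169668-30169737 on the minus strand, and are well known from sensory cells.

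The third miRNA of that transcript, miR-96, left fewer counts. miR-96-5p had 4 and 2 counts in Dicer_KO and 874 and 694 in WT. Its share of all counts fell by 2.33 on the log2 scale (SE 0.483, edgeR, adjusted p = 0.00178), and without the 8 it was not called (-0.37, SE 0.528). The minor arms of the cluster had low WT counts: miR-182-3p had 50 and 26 counts against 104 and 134, and miR-183-3p had 63 and 35 against 1170 and 1088. As shares of all counts both rose, by 4.0 (SE 0.438) and 1.15 (SE 0.319), the latter not called without WT replicate 1 or without Dicer_KO replicate 1, while their raw counts were lower. The cluster as a whole held 41.8% and 36.3% of the Dicer_KO counts without the 8, against 14.9% and 14.2% in WT. Over all counts its share was lower in Dicer_KO, 11.6% and 8.27% against 14.8% and 14.1%.

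miR-21a-5p, a miRNA abundant in growing and stromal cells, had 1137 and 537 counts in Dicer_KO and 6072 and 4367 in WT. Its share of all counts was 2.51% and 1.43% in Dicer_KO and 0.258% and 0.225% in WT, and it rose under both denominators, by 3.03 (SE 0.390, edgeR, adjusted p = 5.39e-05) and by 4.99 (SE 0.381) without the 8. miR-21a-3p, its minor arm, had 0.473% and 0.229% of all counts against 0.0115% and 0.0102%. Its log2 fold change over all counts was 5.02 (SE 0.400), and 4.40 without Dicer_KO replicate 1. The hairpin lies at chr11:86584067-86584158 within an exon of Vmp1. On raw counts, miR-21a-5p was called lower and miR-21a-3p was not called.

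miR-205 and miR-135b were less abundant in WT and also kept more of their counts. miR-205-5p, a miRNA of epithelial cells, had 239 and 209 counts in Dicer_KO against 1109 and 797 in WT, and its share of all counts rose by 3.62 (SE 0.316, edgeR, adjusted p = 3.04e-06). miR-135b-3p had 107 and 65 counts against 167 and 163, and miR-135b-5p had 63 and 41 against 265 and 254. Their shares rose by 4.73 (SE 0.364) and 3.36 (SE 0.406). Each of these raw counts was lower in both Dicer_KO libraries than in both WT libraries.

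Several of the leading WT entries are 3p arms. miR-92a-3p, the most counted WT entry, had 355897 and 313144 counts in WT and 288 and 235 in Dicer_KO, so its share of all counts fell by 4.63 (SE 0.239, edgeR, adjusted p = 1.19e-07) and without the 8 by 2.64 (SE 0.214). miR-295-3p dropped from 231781 and 203630 counts to 210 and 251, and its share fell by 4.16 (SE 0.270). miR-22-3p dropped from 58538 and 42979 counts to 34 and 24, and its share fell by 5.07 (SE 0.300). These 3 entries are 3p arms, and each was called lower under both denominators. miR-127-3p, from the imprinted Dlk1-Dio3 region, had 192366 and 154688 counts in WT and 131 and 190 in Dicer_KO. Its share fell by 4.34 (SE 1.56, edgeR, adjusted p = 0.0333), but it was not called without the 8, nor over all counts when any 1 of the WT, Dicer_KO or Ago12_KO libraries was left out.

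Among the 20 entries with the most WT counts outside the 8, the 10 3p arms had between 741 and 2199.7 WT counts for each Dicer_KO count. The lowest was miR-294-3p and the highest miR-434-3p. The 10 5p arms ranged from 36.2 for miR-183-5p to 1317, with a median of 454 against 1235 for the 3p arms. Thus miR-183-5p had fewer WT counts per Dicer_KO count than the libraries as a whole, and miR-182-5p (93.4) and miR-293-5p (56.9) fewer than the libraries without the 8. Over the 92 entries with at least 20 Dicer_KO counts, the median ratio was 84.1 for 48 5p arms, 574 for 31 3p arms and 0.469 for 13 entries with no arm in the name, 6 of which belong to the 8. For the other 7 it was 1.44. Since Dicer_KO counts both chose these entries and enter the ratio, entries that fell below 20 counts are left out, and the medians describe only the entries shown. The 20 entries with the most Dicer_KO counts outside the 8 were 11 5p arms, 6 3p arms and 3 entries with no arm.

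**Figure D2:**
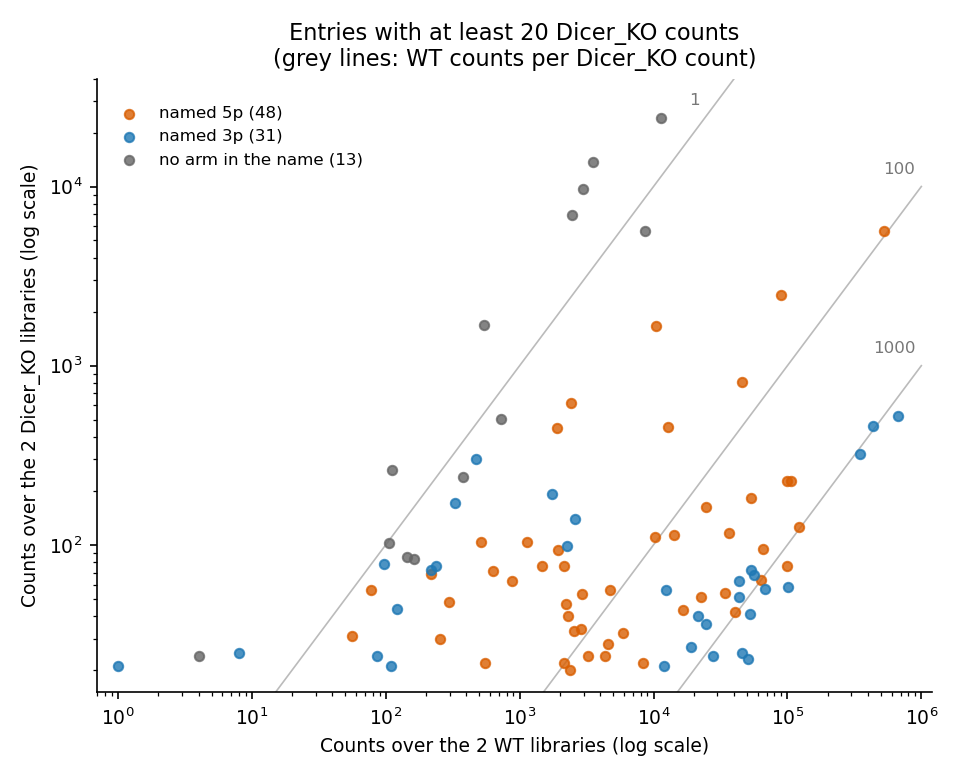
Counts of the 92 entries with at least 20 Dicer_KO counts, over the WT libraries (horizontal) and over the Dicer_KO libraries (vertical), both on log scales, coloured by arm; grey lines mark 1, 100 and 1000 WT counts per Dicer_KO count. Entries with no arm lie about the line of 1 (median 0.469, or 1.44 for the 7 outside the 8), 5p arms spread widely (median 84.1), and the 3p arms with most WT counts lie along the line of 1000.

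Of the counts on entries that name an arm, the 5p share was 82.5% and 77.2% in Dicer_KO (95% exact Clopper-Pearson intervals 81.8 to 83.1 and 76.2 to 78.1) and 42.3% and 40.8% in WT. The means were 79.8% ± 3.74 and 41.6% ± 1.08 (SD, n = 2), with no overlap. The corresponding values were 52.7% in both Dgcr8_KO libraries, 70.3% and 61.0% in Drosha_KO, and 52.2% and 55.0% in Ago12_KO. The excess of 5p arms rested on hairpins with many counts. The 5 with the most Dicer_KO counts (miR-182, miR-183, miR-21a, miR-295 and miR-293) made up 65.2% and 57.7% of the arm-named Dicer_KO counts and 27.2% of those in each WT library. Without them the 5p share was 61.1% ± 3.32 in Dicer_KO and 35.3% ± 0.785 in WT. When each of 42 hairpins with at least 20 counts in every library had the same weight, the 5p share was 66.7% and 65.3% in Dicer_KO and 65.6% and 65.3% in WT, so the groups overlapped.

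Counts were also divided by which arm was the major one in WT, over 578 hairpins with both arms in the table and a WT count. Minor arms held 13.0% and 12.8% of these counts in Dicer_KO and 5.12% and 5.42% in WT. Without the 5 leading hairpins the shares were 19.1% and 18.0% against 5.51% and 5.82%, and without miR-295 alone 10.2% and 10.5% against 5.62% and 6.0%. Major 3p arms lost the most, with 991 WT counts for each Dicer_KO count. Major 5p arms had 116, minor 5p arms 60.2 and minor 3p arms 107.

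The order of these classes was partly kept when leading hairpins were left out. Without the 5 leading hairpins the ratios were 1002 for major 3p arms, 250 for major 5p arms, 148 for minor 5p arms and 118 for minor 3p arms. Without miR-92a the ratio of major 3p arms was 908. Since the WT libraries both define the major arm and enter the ratio, the arm was also set in WT replicate 1 alone and the ratio taken from replicate 2, with 910 for major 3p arms, 103 for major 5p arms, 56.5 for minor 5p arms and 99.6 for minor 3p arms.

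**Figure D3:**
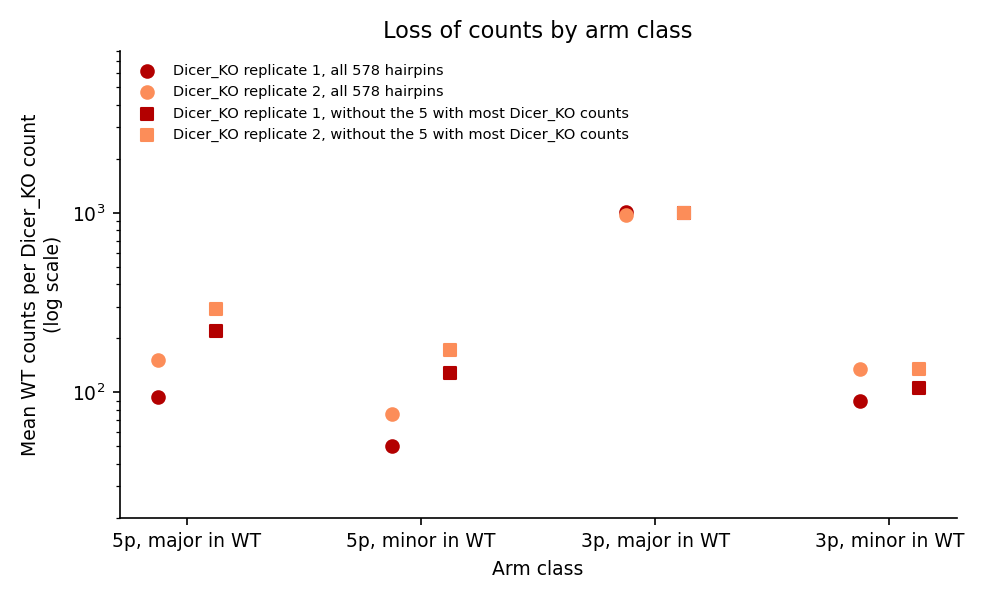
Mean WT counts for each Dicer_KO count (vertical, log scale) in 4 classes of arm, 1 point for each Dicer_KO library; circles use all 578 hairpins and squares leave out the 5 with the most Dicer_KO counts. Major 3p arms sit near 1000 in both libraries, and the other 3 classes sit lower in both.

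The observed balance of the arms within a hairpin is computed without the library total and without the 8 entries. For this, limma was run on log2 of (5p + 0.5)/(3p + 0.5) in the 4 libraries, for 42 hairpins with at least 20 counts in each. Of these, 9 shifted toward 5p in Dicer_KO (21.4%) and 16 toward 3p (38.1%). In WT the 5p arm was the major arm of 30 hairpins and the 3p arm of 12. Among the 25 shifted hairpins, 21 shifted toward the minor arm of WT, 6 of them toward 5p and 15 toward 3p, where 32 of all 42 moved that way. The added 0.5 pulls the arm ratio of a hairpin with few counts toward equal arms. It acts more on Dicer_KO, as the 42 hairpins had a median of 131 WT counts for each Dicer_KO count. Where the same arm leads in both groups, this pull is toward the minor arm of WT. Its part in the 21 shifts toward that arm was not tested. For miR-10a, one of the 16 toward 3p, the observed 3p share did not rise: it had 45 and 26 5p counts and no 3p count in Dicer_KO, beside 380 and 253 5p counts and 1 and 0 3p counts in WT (shift -2.37, SE 0.514, limma, adjusted p = 0.0157, not called without either WT library or without Dicer_KO replicate 2). The other 24 had a summed share that moved the same way as the shift, 15 toward 3p and 20 toward the minor arm. When either WT library was left out, 10 hairpins passed.

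Within the miR-290 to miR-295 cluster on chromosome 7, the hairpins shifted in different directions. miR-295 had 1344 and 1062 counts of its 5p arm and 231781 and 203630 of its 3p arm in WT, but 382 and 234 against 210 and 251 in Dicer_KO. Its 5p share was 64.5% and 48.2% in Dicer_KO and 0.576% and 0.519% in WT, a shift of 7.89 on the log2 scale (SE 0.433, limma, adjusted p = 0.000594). The hairpin lies at chr7:3220773-3220841, opposite to an exon of Nlrp12. miR-294 had 49 and 27 5p counts beside 26 and 46 3p counts in Dicer_KO, and 740 and 719 beside 27815 and 25540 in WT. It shifted by 5.26 (SE 0.632), with 4.43 without Dicer_KO replicate 1 and 6.09 without replicate 2, and was not called without either WT library.

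miR-293 had nearly equal arms in WT, with 24321 and 21649 5p counts beside 22972 and 20323 3p counts. In Dicer_KO it had 483 and 325 5p counts beside 34 and 29, a 5p share of 93.4% and 91.8% against 51.4% and 51.6% (shift 3.55, SE 0.299, limma, adjusted p = 0.00099). miR-290a went the other way: its 5p arm led in WT with 2859 and 2449 counts beside 665 and 1082, and its 3p arm led in Dicer_KO with 129 and 63 counts beside 13 and 6 (shift -4.92, SE 0.420). miR-291a and miR-292a did not pass, with shifts of 1.21 (SE 0.396) and 0.90 (SE 0.294), each with an adjusted p of 0.0503 (limma). In these 2 hairpins the 5p arm led in all 4 libraries.

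The minor arms of the cluster were also compared as shares of all counts. miR-295-5p had 382 and 234 counts against 1344 and 1062 in WT, and its share rose by 3.72 (SE 0.367, edgeR, adjusted p = 6.77e-06). miR-290a-3p, with 129 and 63 counts against 665 and 1082, rose by 2.44 (SE 0.439). miR-294-5p rose by 1.41 (SE 0.353), a call lost without Dicer_KO replicate 1. On raw counts these 3 arms were called lower. miR-293-5p did not pass over all counts (-0.15, SE 0.293) and rose without the 8 (1.83, SE 0.283).

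Outside that cluster, miR-16, a miRNA known to restrain the cell cycle, had 118 and 110 5p counts beside 23 and 23 3p counts in Dicer_KO, and 60261 and 45935 beside 102 and 98 in WT. The 3p arm thus made up 16.3% and 17.3% of the hairpin's counts in Dicer_KO and 0.169% and 0.213% in WT, a shift of -6.75 (SE 0.300, limma, adjusted p = 0.000573). miR-182 shifted by -4.88 (SE 0.373), with a 3p share of 1.39% and 1.20% in Dicer_KO against 0.0351% and 0.0573% in WT. miR-93, of the miR-106b-25 cluster, had 25 and 18 5p counts beside 9 and 7 3p counts, against 9139 and 7525 beside 255 and 248 in WT (shift -3.68, SE 0.290).

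miR-21a shifted toward its 3p arm by -1.95 (SE 0.286), and miR-135b by -1.36 (SE 0.277). Their 3p shares were 15.8% and 13.8% against 4.26% and 4.36% for miR-21a, and 62.9% and 61.3% against 38.7% and 39.1% for miR-135b. miR-148a shifted toward 5p by 3.71 (SE 0.399), with 14 and 8 5p counts beside 20 and 21. miR-423 also shifted toward 5p, by 1.39 (SE 0.284), from 28.2% and 27.2% in WT to 51.9% and 48.3%. None of these 4 was called without WT replicate 1 or without WT replicate 2.

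Some of the largest shifts rested on very few counts. miR-22 had 1 and 0 5p counts in Dicer_KO, miR-541 had 1 and 0 3p counts, miR-26a had 6 and 1, and miR-191 had 2 and 1, so their shifts of 6.59, -7.56, -6.42 and -3.72 depend on the added 0.5, as does that of miR-10a. The same holds for miR-532 (shift 1.87), with no 3p count in Dicer_KO beside 21 and 17 in WT. It also holds for miR-3068 (shift -2.02), with no 5p count in Dicer_KO beside 8 and 4 in WT. miR-669a had 300 and 156 5p counts and no 3p count in Dicer_KO, where miR-669a-3p had 4224 and 1826 counts in WT. All counts of miR-669a-5p are multiples of 12 and all of miR-669a-3p multiples of 11, so a limit from 3 counts does not hold for them and none is given. All counts of miR-467a, called toward 3p with 120 and 130 counts in Dicer_KO, are multiples of 10. The arm test was not rerun with repeat counts divided. Whether miR-669a (called toward 5p), miR-467a and other such hairpins would still meet the minimum of 20 counts was not tested. miR-183 and miR-205 were not called, with shifts of -0.65 (SE 0.296) and -0.34 (SE 0.404). The 3p share of miR-183 was still higher in both Dicer_KO libraries, 3.85% and 3.76% against 2.23% and 2.77%.

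**Figure D4:**
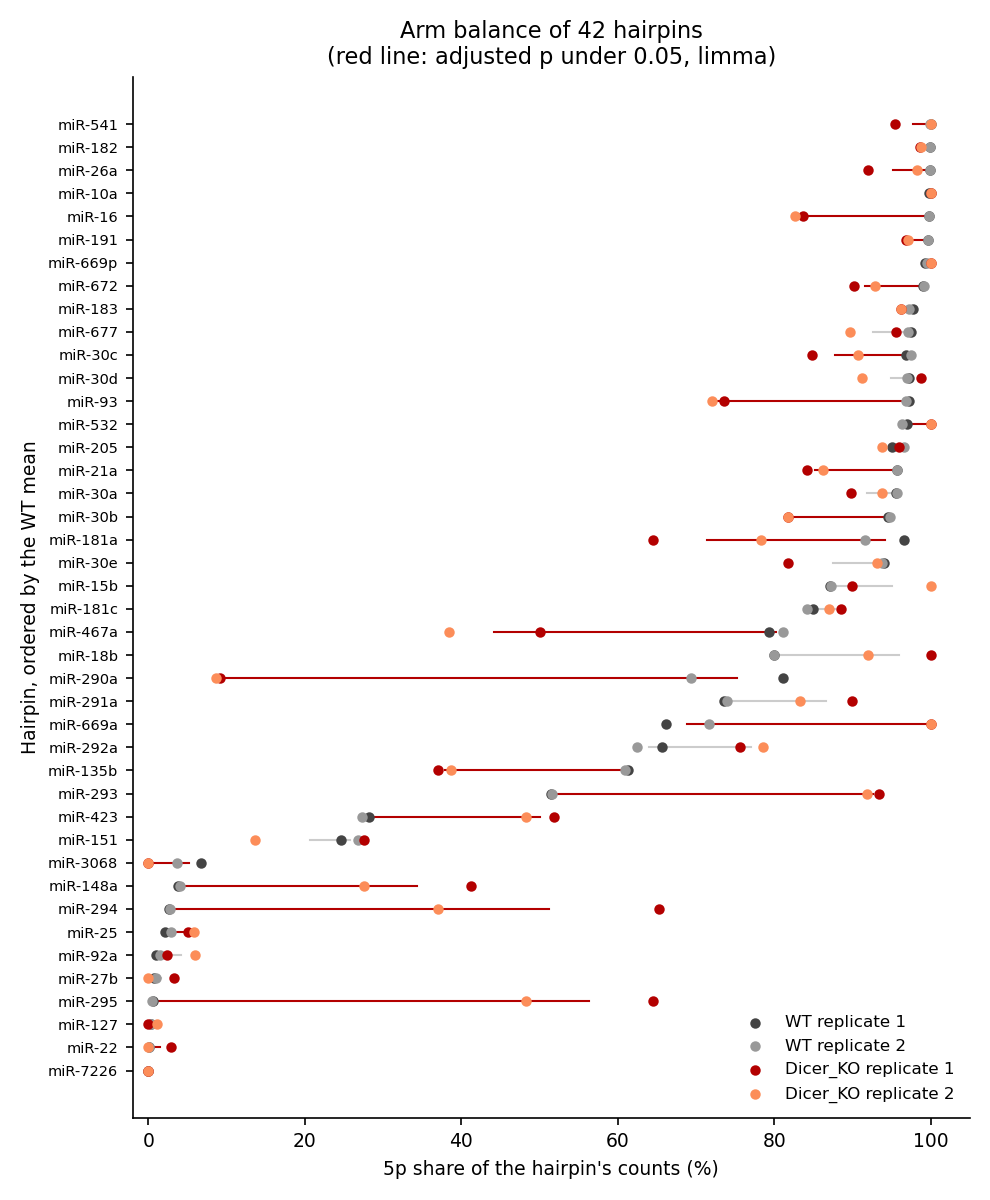
The 5p share of the counts of each of 42 hairpins (horizontal, %), ordered by the WT mean, 1 point a library, with a line between the group means that is red where the limma adjusted p was under 0.05. miR-295 moved from 0.576% and 0.519% in WT to 64.5% and 48.2% in Dicer_KO, and miR-290a moved in the opposite direction.

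Clusters and families were described by their counts of calls. Over all counts, 13.3% of all tested entries were higher and 42.6% lower, with a median of -2.78. Without the 8, the shares to set beside them were 19.5% higher and 16.9% lower, with a median of -1.16. Of 14 tested entries from miR-290 through miR-295, 3 were called higher and 9 lower over all counts, with a median of -2.80, and 5 higher and 6 lower without the 8. The cluster held 3.62% and 3.24% of all Dicer_KO counts against 18.5% and 19.8% in WT. Without the 8 it held 13.1% and 14.2% against 18.6% and 19.9%. Its members with seed AAGUGCU all fell: miR-294-3p by 3.80 (SE 0.366; -4.44 without Dicer_KO replicate 2), from 27815 and 25540 counts to 26 and 46, and miR-291a-3p by 3.74 (SE 0.324), from 10143 and 8841 to 12 and 15. miR-292a-5p fell by 3.10 (SE 0.241) and miR-292a-3p fell by 4.01 (SE 0.285).

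The miR-17-92 cluster and its paralogs, known for promoting proliferation, had 1 of 26 entries higher and 17 lower over all counts, and 4 higher and 11 lower without the 8. They held 18.2% and 19.5% of WT counts and 0.986% and 1.04% of Dicer_KO counts. miR-363-3p, which has the seed of miR-92a-3p, dropped from 12068 and 11836 counts to 7 and 3 and fell by 5.54 (SE 0.419). miR-93-5p fell by 2.90 (SE 0.305). The imprinted Dlk1-Dio3 cluster had none of 63 entries higher and 53 lower over all counts, and 1 higher and 16 lower without the 8. Its median log2 fold change was -4.60, and -3.70 with undetected entries bounded as above. It held 19.1% and 19.0% of WT counts and 0.568% and 1.18% of Dicer_KO counts, so that its Dicer_KO libraries stood apart from each other.

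Within that cluster miR-434-3p dropped from 26377 and 24217 counts to 16 and 7 and fell by 5.43 (SE 0.902, edgeR, adjusted p = 0.000373). miR-410-3p dropped from 24983 and 21104 to 11 and 14. It fell by 5.13 (SE 1.44, edgeR, adjusted p = 0.0104), but was not called without either of the Dicer_KO libraries, without the 8 or with DESeq2 size factors. The miR-26 family, miR-130 with miR-301, miR-148 with miR-152, and the miR-23, miR-27 and miR-24 clusters had 2 of 4, 5 of 6, 3 of 5 and 7 of 9 tested entries lower over all counts, and 2, 4, 2 and 2 without the 8. In the miR-26 family miR-26a-2-3p, with 6 and 1 counts against 45 and 26, was called higher under both denominators, but over all counts not without WT replicate 2 or without Dicer_KO replicate 1 (log2 fold change 2.34, and 0.70 without the latter). miR-26a-5p dropped from 68405 and 53044 counts to 69 and 57 and fell by 4.21 (SE 0.264). miR-148a-3p dropped from 30713 and 22163 to 20 and 21 and fell by 4.61 (SE 0.326), and miR-27b-3p from 35349 and 32502 to 30 and 27 and fell by 4.52 (SE 0.313). miR-130a-3p dropped from 10176 and 8990 to 9 and 2 and fell by 5.09 (SE 0.460; -6.38 without Dicer_KO replicate 1).

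The miR-30 family and the Sfmbt2 cluster stood between these. Of 11 miR-30 entries, 3 were higher and 6 lower over all counts, and 3 higher and 1 lower without the 8. The family held 3.12% and 2.57% of the Dicer_KO counts without the 8 and 2.82% and 2.63% of those of WT, with overlapping groups. Of 44 Sfmbt2 entries, the repeat-rich cluster within an intron of Sfmbt2, 4 were higher and 10 lower over all counts, and 10 higher and 6 lower without the 8. The miR-15/16 family had 1 of 13 higher and 2 lower over all counts, and 5 higher and 1 lower without the 8. miR-16-5p fell by 3.15 (SE 0.280) and miR-16-1-3p, with 23 and 21 counts against 59 and 63, rose by 4.21 (SE 0.414), though its raw counts were lower. For let-7 and miR-98, miRNAs of differentiated cells, 3 of 10 entries were lower over all counts and none was called without the 8. let-7f-5p had 18 and 6 counts against 2260 and 2046 and was not called (-1.82, SE 0.778, edgeR, adjusted p = 0.0677).

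**Figure D5:**
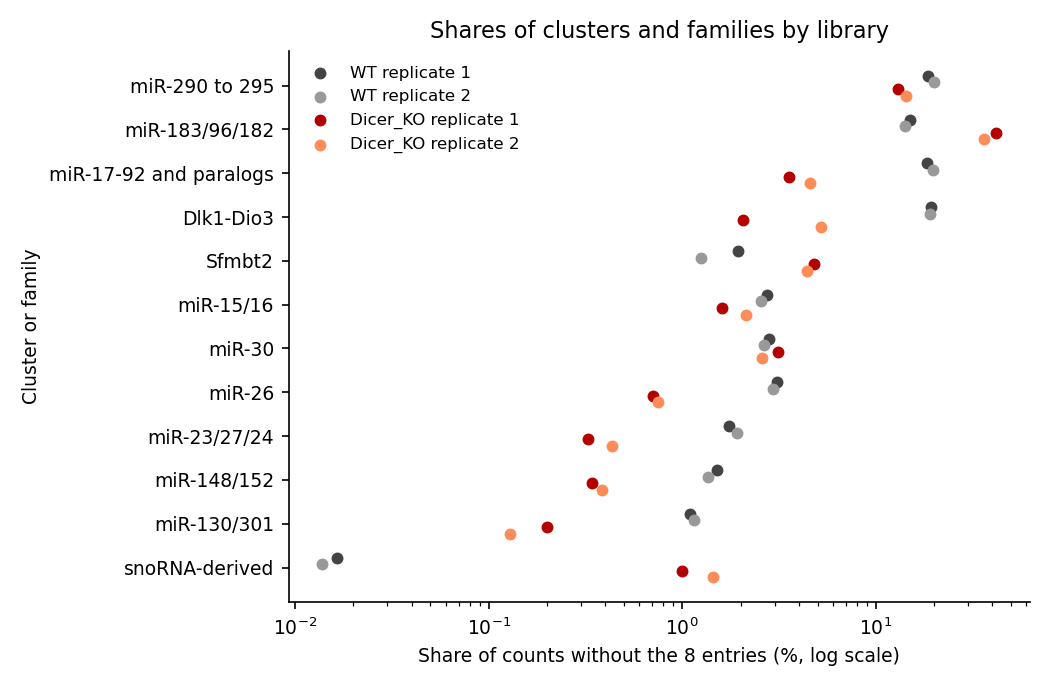
Shares of clusters and families in the counts without the 8 entries (horizontal, %, log scale), 1 point a library. The cluster of miR-183, miR-96 and miR-182 held 41.8% and 36.3% in Dicer_KO against 14.9% and 14.2% in WT, a direction that is reversed over all counts, where it held 11.6% and 8.27% against 14.8% and 14.1%.

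Entries with no arm in the name were counted apart, beside the same shares over all tested entries: 13.3% higher and 42.6% lower. Without the 8, those shares were 19.5% and 16.9%. Of 33 tested, the 8 included, 16 were called higher and 4 lower over all counts. Of the 25 outside the 8, 10 were higher and 3 lower over all counts, and 10 higher and 1 lower without the 8. Over all counts, the 5p arms had 21 entries higher and 87 lower and 3p arms 27 higher and 114 lower. With the 8 out of the totals, 5p arms had 48 higher and 25 lower, and 3p arms 34 higher and 54 lower. The balance of calls among 5p arms thus turned with the denominator, while 3p arms had more entries lower than higher under both. miR-5121, whose hairpin lies over the snoRNA gene Snord33 in Rpl13a, had 268 and 238 counts in Dicer_KO and 400 and 328 in WT, and its share rose by 5.18 (SE 0.418, edgeR, adjusted p = 2e-06). miR-3535, over a snoRNA gene in Ncl, had 118 and 120 counts against 220 and 159 and rose by 5.05 (SE 0.408). miR-5100 had 0.316% and 0.312% of all counts against 0.00322% and 0.0018%, and its share rose by 6.95 (SE 0.649). Its raw counts were also higher in both Dicer_KO libraries than in both WT libraries, with a log2 fold change of 1.23 on raw counts that was not called (SE 0.590, edgeR, adjusted p = 0.0671).

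miR-5122 and miR-1949 had 46 and 40 counts against 99 and 44, and 71 and 32 against 56 and 50. Their shares rose by 4.99 (SE 0.396) and 5.61 (SE 0.403). A 3p arm of the same kind was miR-7226-3p, from an intron of Ptprf, with 45 and 33 counts against 46 and 51 and a rise of 5.35 (SE 0.352). Without scaling, none of these 3 nor miR-5121, miR-3535 or miR-5100 was called. Hairpins that lie in a snoRNA gene gave 20 tested entries. Of these, 9 were higher and none lower over all counts, beside 13.3% and 42.6% among all tested entries (edgeR). Without the 8, 12 were higher and none lower, beside 19.5% and 16.9%. Among the snoRNA entries, miR-1839-5p, from a small Cajal body RNA, had 3 and 2 counts against 116 and 79 and was not called over all counts (0.42, SE 0.611).

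Outside the 8, 2 entries were called higher even on raw counts. miR-181a-2-3p had 11 and 10 counts in Dicer_KO and 1 and 0 in WT, a ratio of raw counts of 21 (exact 95% interval 3.38 to 868). miR-2137 had 9 and 15 counts against 3 and 1, a ratio of 6 (2.06 to 23.8). Both were called higher under each scaling, including none.

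Some miRNAs bypass a step of the usual path. Their calls stand beside 13.3% higher and 42.6% lower among all tested entries over all counts. Without the 8, those shares were 19.5% and 16.9%. Mirtrons, hairpins made by splicing rather than by Drosha but still cut by Dicer, had 3 of 6 tested entries lower over all counts and none higher, and none called without the 8. miR-877-5p had 1 and 1 counts in Dicer_KO against 507 and 526 in WT, 517 WT counts for each Dicer_KO count (exact 95% interval 142.6 to 4271). Of 4 tested entries from hairpins that are capped or whose ends come from transcription, 1 was called higher and 1 lower under both denominators. miR-484 dropped from 2432 and 2324 counts to 5 and 2 and fell by 3.73 (SE 0.424; -4.38 without Dicer_KO replicate 1). The entry called higher was miR-320-5p, on 2 and 3 counts in Dicer_KO against 1 and 2 in WT. miR-320-3p had 5 and 10 counts against 759 and 739 and was not called (-0.93, SE 0.494, edgeR, adjusted p = 0.134). miR-451a, which Ago2 cuts without Dicer, had 4 and 5 counts in WT and none in Dicer_KO, too few to test. The intronic entries numbered miR-6896 to miR-7094 had 5 of 32 tested entries higher and 1 lower under both denominators. Of these 32, 23 had no Dicer_KO count, and without scaling 24 were called lower and none higher.

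Markers of other cell types were read from the same table. Of 22 entries on the feeder and fibroblast list, 14 had a Dicer_KO count. Without the 8, the list held 11.4% and 8.14% of the Dicer_KO counts against 4.70% and 4.48% in WT. The direction was reversed over all counts, where it held 3.15% and 1.85% in Dicer_KO against 4.66% and 4.45% in WT. miR-21a is on that list. With miR-21a and the 8 left out, the list held 0.599% and 0.833% against 4.43% and 4.25%. miR-199a-5p, miR-199b-5p, both arms of miR-214, miR-221-3p and miR-222-3p had no Dicer_KO count. Without the 8, the blood list held 0.264% and 0.375% in Dicer_KO against 0.208% and 0.162% in WT. Over all counts this too was reversed, with 0.073% and 0.0854% against 0.206% and 0.161%. On the blood list 7 of 14 entries were counted in Dicer_KO, with none for miR-223 or miR-144. Without the 8, the neural list held 0.272% and 0.164% against 0.318% and 0.348%, with 9 of 17 counted. miR-124-3p, with 1113 and 956 counts in WT, had none in Dicer_KO, at least 13.3-fold lower as a share of all counts. This bound is smaller without the 8, where the library totals differ more. Of 11 endoderm, liver and gut entries 1 had a Dicer_KO count. The list held 0.184% and 0.106% against 0.164% and 0.158% without the 8, and 0.0509% and 0.024% against 0.163% and 0.157% over all counts. Of 9 muscle entries none had a Dicer_KO count. Together they had only 20 and 16 counts in WT, too few for their absence to be read at the depth of Dicer_KO. For the other lists too, a missing Dicer_KO count does not alone show that a cell type was absent. Of the 829 entries with a count in both WT libraries, 434 had none in either Dicer_KO library. The part of other cells in the results was not tested beyond these values.

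The composition of what was counted also differed. Weighted by counts and without the 8, 72.2% and 68.7% of the Dicer_KO counts fell on entries whose RefSeq sequence starts with U, against 62.0% and 61.3% in WT, and the mean GC content was 46.3% and 46.9% against 48.3% and 48.4%. Of the 8, miR-6539 and miR-5099 have no RefSeq sequence. With the others of the 8 included, the share that starts with U was 61.3% and 47.9% in Dicer_KO against 62.0% and 61.3% in WT. The GC content was then 57.1% and 62.9% in Dicer_KO. These Dicer_KO values rest on 37290 of 45222 and 31088 of 37476 counts. A RefSeq sequence was found for 1623 of the 1907 entries, and counts of the others are left out of all values in this paragraph.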

How the data were processed

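Small RNA of the 4 libraries was made with the TruSeq kit from 1 ug of total RNA and sequenced on a HiSeq2000, per the labels. The authors deposited 1 table of raw counts per mature entry. Per the submitters' processing notes Bowtie and mm10 were used. Not given in the sources used here are tool versions, the counter, the miRBase release and how multi-mapping reads were handled. Only multiples of some number above 1 occurred in 42 of the 865 entries that had counts in 3 or more libraries.

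The main test was edgeR's quasi-likelihood test (version 4.0.16, under R 4.3.3) on these counts. All 5 groups entered 1 fit with 5 residual degrees of freedom, and column totals served as library sizes without TMM factors. filterByExpr by group (minimum count 10, minimum total 15) kept 481 entries, and p-values were adjusted over them by Benjamini-Hochberg. SE is the log2 fold change divided by the root of F. Arm balance used limma 3.58.1 on the 4 libraries. Both scripts were tested on simulated data. There the edgeR test recovered 26.9% of 2-fold, 44.8% of 4-fold and 63.6% of 8-fold changes, so an entry not called may still differ. The simulated hairpins of the arm test had more counts than many hairpins had in Dicer_KO. DESeq2 1.42.0, other scalings and filters, a replicate block and left-out libraries were tried. Annotation came from GENCODE M21 (GRCm38).

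Named were, by rule, the 8 entries, calls with the largest change and a mean of at least 50 CPM, the 10 most abundant entries of a group, up to 4 members of a list, and the arms of the 12 hairpins with the most Dicer_KO counts. This rule gave 122 entries, of which 52 were looked up, so the entries described are not the full set of the rule. Another 11 entries of 63 looked up were chosen after their values were seen, as were the hairpins outside that rule. The members and lists were chosen with earlier results of these data known.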

Additional observations from a re-analysis of the deposited data

How the results depend on the processing

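Scaling moved the results most. Against 64 entries higher and 205 lower, 80 were lower without the 8, 84 higher and 106 lower with DESeq2 size factors, 6 higher and 429 lower without scaling, and 102 each way with DESeq2 and its own size factors. The median log2 fold change of -2.78 became -1.16 without the 8, -3.06 with TMM, -1.67 with size factors, -7.52 without scaling, -2.08 without a filter, -2.27 with a minimum mean of 10 CPM, -2.93 with WT and Dicer_KO alone, -2.69 with repeat counts divided, and -3.39 to -2.56 with 1 library left out. With 1 library left out, 49 to 67 entries were higher, and the number lower stayed within 1.5 times of 205. The 5p share of 79.8% became 66.0% with equal weights, 61.1% without the 5 leading hairpins and 67.0% without miR-182 and miR-183. The minor-arm share of 12.9% became 18.6% without those 5, 10.3% without miR-295, 13.1% without miR-92a and 12.3% without hairpins of repeat counts. The 25 shifted hairpins became 16 of 19 with a minimum of 50 counts and 10 to 34 with 1 library left out.

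Signs turned as follows. Without scaling the values were -0.63 for miR-5099, -2.76 for miR-6239, -0.52 for miR-5121, -0.73 for miR-5122, -0.67 for miR-3535, -0.041 for miR-1949, -0.31 for miR-7226-3p, -1.64 for miR-182-3p, -5.18 for miR-183-5p, -4.52 for miR-183-3p, -2.64 for miR-21a-5p, -0.64 for miR-21a-3p, -1.97 for miR-295-5p, -4.26 for miR-294-5p, -3.18 for miR-290a-3p, -2.09 for miR-205-5p, -0.94 for miR-135b-3p, -2.32 for miR-135b-5p, -1.47 for miR-16-1-3p, -3.30 for miR-26a-2-3p, -4.82 for miR-669a-5p and -5.22 for miR-1839-5p. With size factors, in edgeR or DESeq2, miR-182-5p was 0.52, miR-293-5p 1.24 and miR-320-3p 0.48 and 0.49. Without the 8 these were 1.11, 1.83 and 1.07, and let-7f-5p was 0.13. miR-6239, at 2.72, was -4.22 without Dicer_KO replicate 1 and 3.60 without replicate 2.

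With a replicate block, 64 entries were higher, 201 lower and 24 hairpins shifted. miR-135b and miR-423 did not pass there (limma, adjusted p = 0.0592 and 0.0581). The numbers do not pair the libraries (correlation of same-numbered deviations of WT and Dicer_KO over entries, 0.0140). The division of repeat counts, the 5p share without miR-182 and miR-183 and the minor-arm shares were chosen after seeing the data. The share of the 8 in arm-named counts was not run, because the 8 have no arm. Depth limits the Dicer_KO side: 1 count is worth 22.1 and 26.7 CPM there, so entries under about 3 counts cannot be told from 0.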
